A study of Mus musculus with 6 samples.

Results

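Transcripts of the EGF receptor (ErbB) family and its ligands were measured in mouse liver after a regular or a soy-enriched diet. The set holds 10 of the 22911 genes that the array reads by a RefSeq transcript: the receptors Egfr, Erbb2, Erbb3 and Erbb4, the ligands Egf, Tgfa, Hbegf, Nrg1 and Nrg4, and the feedback gene Lrig1. They are read by 18 of the 56605 probes, those whose RefSeq accession belongs to one of these genes, and each gene had at least 1 probe. Probes were taken by accession and not by signal. Egfr has 3 probes, 2 of the transcript NM_207655 and 1 of NM_007912. Control mice ate 100% regular food and soy mice ate 75% regular food with 25% soy bean powder, for 4 weeks. All were males, 12 weeks old, with no transgene or drug named, and the strain is not given in the sources used here. Each group had 3 mice, with 1 liver sample from the right lobe and 1 one-colour Agilent array per mouse, and 3 arrays per group limit the precision of every value. The labels call the 3 samples of a group biological replicates.

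ErbB receptors are membrane tyrosine kinases that pair up when a ligand binds and pass the signal to the Ras-ERK and PI3K-AKT routes. Egfr binds Egf, Tgfa and Hbegf, Erbb3 and Erbb4 bind neuregulins, and Erbb2 has no ligand of its own and acts as a partner. In the liver Egfr is abundant in hepatocytes and is known for its part in regeneration. Nrg4 is a neuregulin that binds Erbb4 and is known as a hormone of brown fat that acts on the liver.

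Signals are given as normalised signal on the log2 scale, and a change is soy minus control, so that a change of -1 is a 2-fold lower signal in soy livers. Each probe was tested with limma, a linear model whose variance estimate draws on all probes. A probe passed when its p-value, adjusted over all probes by the Benjamini-Hochberg method, was below 0.05 and soy over control was more than 1.5 or less than 0.66. Intervals (95%) are for single probes and are not adjusted for the number of probes. A spot was well above background when the scanner software marked it so. This mark was rarer on the soy arrays, with 31308, 31988 and 32498 spots against 37010, 36366 and 38163 on the control arrays, and the lowest marked signal was 6.41, 6.78 and 6.60 on soy and 6.28, 6.31 and 6.22 on control arrays. A mark on control arrays alone is therefore no measure of a lower level in soy livers. Levels of different probes are not compared, since probes differ in how brightly they hybridise.

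Of the 18 probes, 3 passed, all lower in soy livers, and they belong to Egfr and Nrg4. Among all probes 0.141% passed as lower, 0.208% as higher and 0.350% in either direction. The 198 probes that passed on the whole array were 80 lower and 118 higher (59.6% higher), a split that moved to 90.8% higher with the processed signal of the scanner software. The samples of the groups did not overlap for 9 of the 18 probes, 8 lower and 1 higher in soy. Of all probes, 10.3% were lower and 7.75% higher without overlap. That share includes probes near background, while the 9 member probes were well above background on all 6 arrays, so it is no close match. The 8 lower probes come from 4 genes only (Egfr, Nrg4, Lrig1 and Tgfa), so the probes are not independent of each other. The median change over the 18 probes, of which Egfr, Nrg4 and Lrig1 hold 8, was -0.13, against -0.0102 over all probes. With each gene taken once, by its brightest probe, 5 of the 10 genes were lower and 5 higher, and the median was -0.0142. On all 6 arrays, 13 of the 18 probes were well above background, and these include the 3 that passed; among the 27310 probes of the array with that property, 0.245% passed as lower. The liver is a mixture of cell types, and fewer cells of a type cannot be told apart from less RNA per cell.

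**Figure D1:**
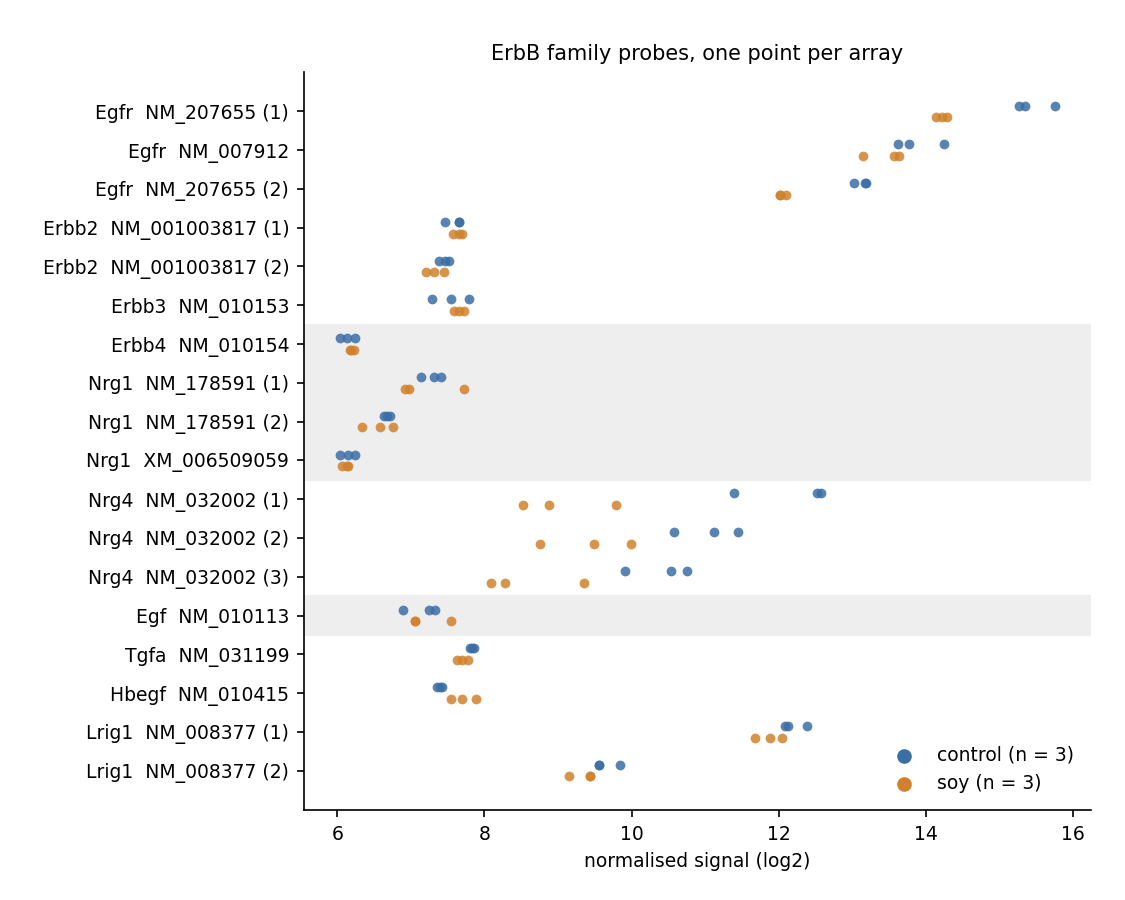
Normalised signal (log2, horizontal axis) of each ErbB family probe on the 3 control (blue) and 3 soy (orange) arrays, 1 point per array, with grey bands for probes that were not well above background on all 6 arrays. Numbers in brackets order the probes of one accession by brightness. The groups are apart for Nrg4 and for the NM_207655 probes of Egfr, and lie together for Erbb2, Erbb3 and Erbb4.

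Among the receptors, Egfr had the probes that passed. The brighter NM_207655 probe measured 15.34, 15.76 and 15.26 in the control livers and 14.22, 14.28 and 14.13 in the soy livers. Every soy liver lay below every control liver, with a gap of 0.986 between the nearest samples. The change was -1.24 (SE 0.145, interval -1.58 to -0.91, adjusted p = 0.0254), a 2.37-fold lower signal. The dimmer NM_207655 probe measured 13.02, 13.19 and 13.17 in control and 12.10, 12.01 and 12.01 in soy livers. These soy values were also all below the control values, and each group spread little, with an SD of 0.09 in control and 0.05 in soy. The change of this probe was -1.09 (SE 0.0973, interval -1.32 to -0.86, adjusted p = 0.0115), a 2.13-fold lower signal.

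The arrays lie on 3 slides, of which slide 1 (control 1, control 2 and soy 1) and slide 3 (control 3 and soy 3) hold both groups, while slide 2 holds soy 2 alone. Within slide 1 the brighter and dimmer NM_207655 probes changed by -1.33 and -1.01, and within slide 3 by -1.13 and -1.17. With slide as a block their changes were -1.24 and -1.08 and neither passed (adjusted p = 0.136 and 0.112, limma), while 24 probes passed on the whole array. The calls also depended on single arrays. The brighter probe did not pass without control 1 (adjusted p = 0.0577), soy 1 (0.0868), soy 2 (0.103) or soy 3 (0.104) and with a smaller offset in the normexp background correction, 16 in place of 50 (0.0540), and the dimmer one did not pass without soy 2 (0.0677) or soy 3 (0.0556). The changes themselves stayed between -1.34 and -1.09 for the brighter and between -1.14 and -1.06 for the dimmer probe when any 1 array was left out.

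The transcript NM_007912 is known to encode a shorter, secreted Egfr without the membrane-spanning and kinase parts, and the array annotation assigns 1 probe to it. Which exons the Egfr probes read was not checked, so the probes are told apart by annotated accession only. The NM_007912 probe measured 13.62, 13.77 and 14.24 in control and 13.14, 13.57 and 13.63 in soy livers. The groups touched, since soy 3 lay 0.0085 above control 1, and control 3 stood highest. The change was -0.43 (SE 0.197, interval -0.89 to 0.03, adjusted p = 0.464), with -0.56 within slide 1 and -0.62 within slide 3. When 1 array was left out, this change lay between -0.563 and -0.25, and it was -0.25 without control 3. To ask whether the probes of these accessions changed unequally, the difference between the mean of the NM_207655 probes and the NM_007912 probe was taken within each array. Relative to its control mean, this difference was 0.15, 0.29 and -0.44 in control and -0.39, -0.84 and -0.97 in soy livers. Control 3 fell just below soy 1, so the groups overlapped. The difference in change was -0.73 (exact permutation test, two-sided, p = 0.2, n = 3 per group), where the smallest p this design allows is 0.1. With 3 mice per group this test could not pass at 0.05 whatever the values, so the difference is given as a description. It was -0.61 within slide 1 and -0.53 within slide 3, and it lay between -0.95 and -0.59 when 1 array was left out.

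**Figure D2:**
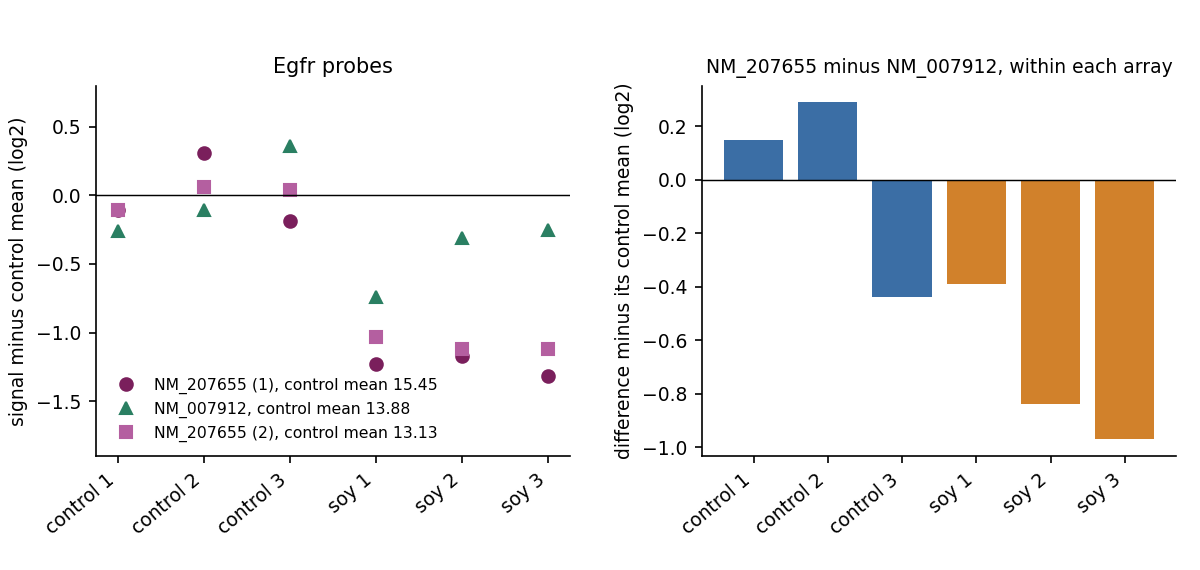
Left, signal of each Egfr probe on each array minus the control mean of that probe (log2), with circles and squares for NM_207655 and triangles for NM_007912. Right, the difference between the NM_207655 mean and NM_007912 within each array minus its control mean (log2), with control in blue and soy in orange: soy 2 and soy 3 are lowest (-0.84 and -0.97), and control 3 (-0.44) is next to soy 1 (-0.39).

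The other receptors did not pass. Erbb2, the partner receptor, measured 7.65, 7.47 and 7.65 in control and 7.57, 7.70 and 7.66 in soy livers on its brighter probe. The values of the groups were interleaved, with a change of 0.0513 (interval -0.18 to 0.29, adjusted p = 0.885), and the dimmer probe changed by -0.13 (interval -0.38 to 0.11, adjusted p = 0.679). These Erbb2 changes are near 0 and their signs are not fixed: the dimmer probe had the opposite sign with a 75th-percentile shift, and the brighter one without control 2. Erbb3, whose kinase is nearly inactive and which signals through a partner, measured 7.28, 7.54 and 7.79 in control and 7.59, 7.72 and 7.66 in soy livers. The soy values fell inside the control range, and the change was 0.12 (interval -0.20 to 0.45, adjusted p = 0.788), and leaving out control 1 turned its sign. For Erbb4 no array gave a spot well above background, with mean signals of 6.14 in control and 6.20 in soy, so the receptor of Nrg4 was not measurable here and no fold is given.

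Among the ligands, Nrg4 was lower in soy livers on all 3 of its probes, which read the single transcript NM_032002. The brightest probe measured 12.58, 12.52 and 11.39 in control and 9.79, 8.53 and 8.87 in soy livers. The groups did not overlap, and the nearest samples, control 3 and soy 1, were 1.60 apart. This probe fell by 3.10 (SE 0.401, interval -4.03 to -2.17, adjusted p = 0.0329), an 8.57-fold lower signal, which on the linear scale was 6126, 5874 and 2688 in control and 886, 371 and 468 in soy livers.

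The next Nrg4 probe measured 11.12, 11.44 and 10.57 in control and 9.99, 8.76 and 9.49 in soy livers. The dimmest Nrg4 probe measured 10.53, 10.75 and 9.91 in control and 9.35, 8.09 and 8.28 in soy livers. On every Nrg4 probe control 3 was the lowest control, soy 1 the highest soy and soy 2 the lowest soy sample, and the groups did not overlap. These probes changed by -1.63 (interval -2.40 to -0.86, adjusted p = 0.109) and -1.83 (interval -2.64 to -1.01, adjusted p = 0.0964) and did not pass, so the size of the Nrg4 change differs between probes of one transcript. Within slide 1 the brightest Nrg4 probe changed by -2.76 and within slide 3 by -2.52, and with slide as a block it passed with -2.66 (adjusted p = 0.0223). When 1 array was left out, this probe passed without control 3 (adjusted p = 0.0260) but not without control 1 (0.0896), control 2 (0.116), soy 1 (0.0571), soy 2 (0.125) or soy 3 (0.128), with changes between -3.48 and -2.83. Nor did it pass with a normexp offset of 16 (adjusted p = 0.0572) or with trended and robust variances (0.0748).

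**Figure D3:**
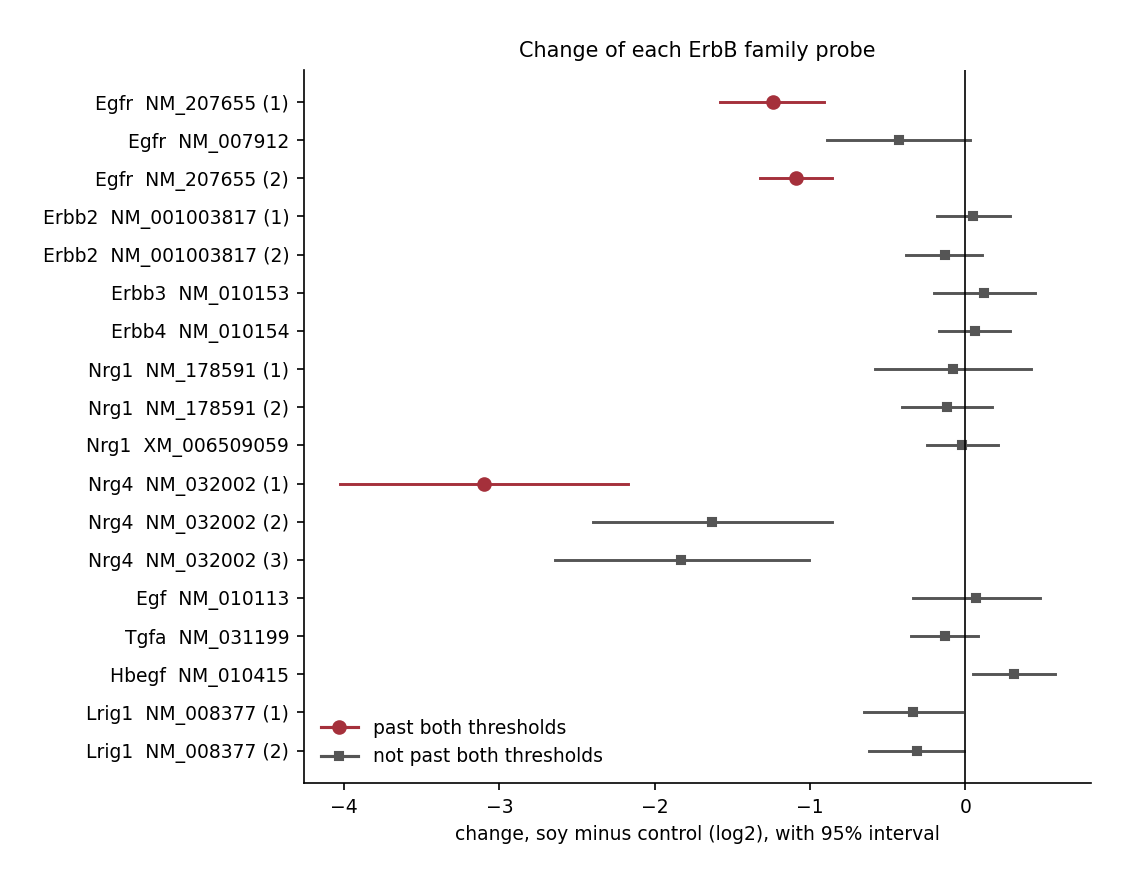
Change of each ErbB family probe (soy minus control, log2) with its 95% interval, with red circles for probes past both thresholds and grey squares for the others. The brightest Nrg4 probe lies at -3.10 and the NM_207655 probes of Egfr at -1.24 and -1.09, while the intervals of Erbb2, Erbb3, Erbb4, Nrg1, Egf and Tgfa include 0.

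None of the other ligands passed. Hbegf, a membrane-anchored ligand of Egfr that is released by cleavage, measured 7.39, 7.42 and 7.36 in control and 7.89, 7.69 and 7.54 in soy livers. It was the one member with every soy sample above every control sample, and its change was 0.31 (SE 0.115, interval 0.05 to 0.58, adjusted p = 0.356), with 0.48 within slide 1 and 0.18 within slide 3. Tgfa, a ligand of Egfr made by hepatocytes, measured 7.83, 7.86 and 7.80 in control and 7.78, 7.69 and 7.63 in soy livers. The soy samples were all lower, by a gap of only 0.0291, and the change was -0.13 (SE 0.0925, interval -0.35 to 0.08, adjusted p = 0.644). Egf was well above background on the 3 control arrays and on no soy array, with means of 7.16 ± 0.23 and 7.22 ± 0.28 (SD, n = 3), so that no fold is given. Nrg1, a neuregulin of nerve and heart, was well above background on 3 control arrays and 1 soy array by its brightest probe, where soy 1 was highest at 7.72, and on no array by its other probes. The brightest Nrg1 probe changed by -0.0797 (interval -0.58 to 0.42, adjusted p = 0.919), and its sign was the opposite without soy 2 or soy 3, with slide as a block and with a 75th-percentile shift.

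Lrig1, a membrane protein that binds ErbB receptors and lowers their level, was lower in every soy liver on both of its probes without passing. The brighter probe measured 12.12, 12.09 and 12.38 in control and 11.67, 11.88 and 12.04 in soy livers. The groups were apart by 0.0504 only, and the change was -0.34 (SE 0.135, interval -0.65 to -0.02, adjusted p = 0.403). The dimmer Lrig1 probe changed by -0.31 (SE 0.132, interval -0.62 to -0.01, adjusted p = 0.424). Within the slides the brighter probe changed by -0.44 and -0.34, and the dimmer one by -0.41 in each.

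The genes that passed, Egfr and Nrg4, are shown by the start of the gene, 250 bases before to 50 after it, from RefSeq on GRCm38.p6. A window was listed for 7 of the 10 members, 8 windows in all. Each is written 5′ to 3′ on the strand of the gene. Capitals mark matches, on either strand, to CACGTG (E-box), GGGCGG (Sp1 box), TATAAA (the core of a TATA box), TGANTCA (AP-1 site), CCAAT (the motif of factor NF-Y) and AGGTCA (the core motif of many nuclear receptors). AGGTCA was added after the sequences had been seen.
Egfr, chr11:16751953-16752252, plus strand: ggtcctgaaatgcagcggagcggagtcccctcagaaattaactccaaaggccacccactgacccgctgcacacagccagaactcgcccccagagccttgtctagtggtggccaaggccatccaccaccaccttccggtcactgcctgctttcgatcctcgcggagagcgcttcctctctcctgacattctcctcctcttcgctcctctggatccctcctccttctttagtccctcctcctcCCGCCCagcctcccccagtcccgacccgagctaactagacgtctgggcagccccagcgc
Nrg4, chr9:55283576-55283875, minus strand: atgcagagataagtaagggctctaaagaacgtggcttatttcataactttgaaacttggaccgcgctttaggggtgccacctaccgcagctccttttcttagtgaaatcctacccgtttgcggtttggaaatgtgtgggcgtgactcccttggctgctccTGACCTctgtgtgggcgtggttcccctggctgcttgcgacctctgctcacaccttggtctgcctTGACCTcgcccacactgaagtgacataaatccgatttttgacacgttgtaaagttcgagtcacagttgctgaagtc
The Egfr window holds 1 Sp1 box and no match to the other motifs, with 62.3% G and C. The Nrg4 window holds 2 copies of AGGTCA, both read here as TGACCT, and no match to the other motifs, with 51.0% G and C, where the median of all windows was 52.7%. Of the 32851 windows in the table, 35.7% hold GGGCGG, 16.3% AGGTCA, 37.4% CCAAT, 13.6% TATAAA, 7.81% TGANTCA and 7.15% CACGTG. These shares count windows with any match, and the share with 2 copies of AGGTCA is not given here. Motif matches describe the letters of these windows, and no binding was measured.

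The rest of the pathway was described by lists of genes, each gene by its brightest probe for values and by any probe for calls. Counted in the same way, 3778 of all 22911 genes (16.5%) had a probe with an unadjusted p under 0.05, and so did 3175 of the 13513 genes (23.5%) whose brightest probe was well above background on all 6 arrays. The other ErbB ligands Areg, Ereg, Btc, Epgn, Nrg2 and Nrg3 were low. In neither group was any of the 6 well above background on each of the 3 arrays, and Areg, Epgn, Nrg2 and Nrg3 were on no array. Ereg and Btc were so on 2 control arrays and no soy array, and no fold is given for these ligands. With limma 0 of the 6 passed and 0 had an unadjusted p under 0.05. The median of this list, over signals near or under background, was -0.0957, and it was 0.131 with a 75th-percentile shift and 0.195 with the processed signal.

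Of 7 genes that shed or help to shed ligands, 0 passed with limma and 1 had an unadjusted p under 0.05, and the median change was -0.0415. Adam17, the protease that releases Tgfa and Hbegf, measured 9.66, 9.94 and 9.84 in control and 10.11, 10.28 and 10.10 in soy livers. Every soy liver was higher, and the change was 0.35 (SE 0.113, adjusted p = 0.296). Rhbdf1, which helps Adam17 to mature, varied widely within the groups, with 10.40 ± 1.19 in control and 9.63 ± 0.76 in soy livers (SD, n = 3), a change of -0.76 (adjusted p = 0.677). Rhbdl2, a rhomboid protease, was well above background on the 3 control arrays alone. No fold is given for it, since its groups overlapped (adjusted p = 0.66).

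Of 19 genes of feedback and receptor turnover, 0 passed with limma, 6 had an unadjusted p under 0.05, 13 were lower and 6 higher, and the median change was -0.0922. Without overlap by the brightest probe, 5 were lower and 1 higher, where 10.3% of all probes were lower and 7.75% higher without overlap. That share counts probes, including those near background, and not genes, so it is no close match for this list. Errfi1, an inhibitor that binds the Egfr kinase, measured 16.92, 16.93 and 16.88 in control and 16.51, 15.90 and 16.41 in soy livers. All soy samples were lower, soy 2 most, and the change was -0.63 (SE 0.163, adjusted p = 0.186). Spry4, an inhibitor of the Ras-ERK route, was lower in each soy liver than in any control liver (change -0.72, SE 0.197, adjusted p = 0.216), and was well above background on 1 of 3 soy arrays. Its relative Spred1 changed by -0.47 (SE 0.154, adjusted p = 0.301), also without overlap.

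Of 28 adaptor and relay genes, 1 passed as higher and 0 as lower, 6 had an unadjusted p under 0.05, and the median change was -0.0439. The gene that passed was Stat5a, a transcription factor of cytokine and growth hormone signalling, on its dimmer probe. That probe measured 9.44, 9.66 and 9.67 in control and 10.37, 10.56 and 10.79 in soy livers. All soy samples were higher, and the change was 0.98 (SE 0.134, adjusted p = 0.0396), but it did not pass with any 1 array left out (adjusted p = 0.0664 to 0.138). The brighter Stat5a probe changed the other way, by -0.35 (SE 0.170, adjusted p = 0.484), so the direction of Stat5a is not settled.

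Of 12 genes that ERK signalling is known to induce, 0 passed with limma, 2 had an unadjusted p under 0.05, and the median change was -0.0444. They did not move together. Myc, a growth-related transcription factor, measured 9.34, 9.88 and 9.26 in control and 10.34, 10.36 and 11.31 in soy livers, all higher, a change of 1.17 (SE 0.284, adjusted p = 0.165). Junb, an AP-1 protein, measured 14.72, 14.19 and 13.68 in control and 13.30, 13.20 and 13.28 in soy livers, all lower, a change of -0.94 (SE 0.235, adjusted p = 0.177). Ccnd1, the cyclin of G1 phase, changed by -0.40 (SE 0.252, adjusted p = 0.602) with overlap. Of 10 other growth factor receptors of liver, 0 passed with limma and 1 had an unadjusted p under 0.05, with a median change of 0.0272. The largest changes there were those of Kdr (0.31, adjusted p = 0.447), Fgfr4 (0.25, adjusted p = 0.445) and Tek (0.22, adjusted p = 0.596), and the hepatocyte growth factor receptor Met changed by 0.0440 (adjusted p = 0.934).

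**Figure D4:**
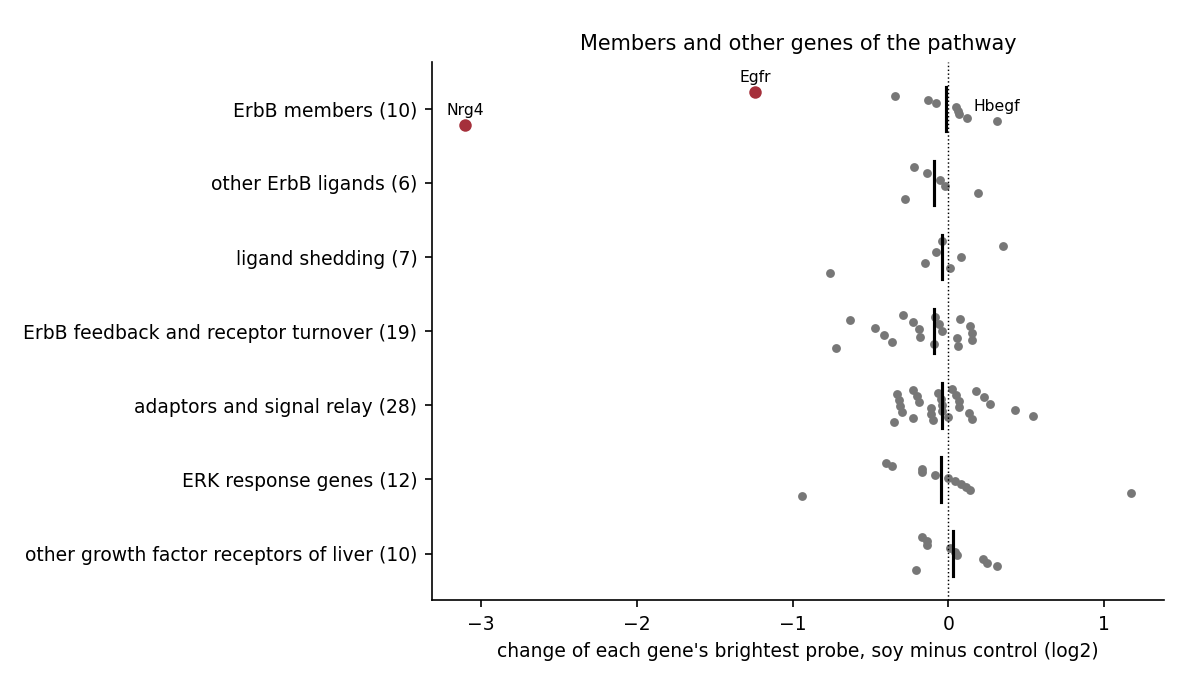
Change of the brightest probe of each gene (soy minus control, log2) for the ErbB members and the other lists of the pathway, with 1 point per gene, the number of genes in brackets, red for probes past both thresholds and a black bar for the median. Nrg4 (-3.10) and Egfr (-1.24) stand at the low end, and the medians of the lists lie between -0.0957 and 0.0272.

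The genes with the pattern most like that of Egfr and Nrg4 over the 6 arrays were taken from 13297 genes by the root mean square difference of the values after each gene was centred on its mean. For the brighter NM_207655 probe these were Cela2a, a pancreatic elastase (0.124 log2), Hsbp1l1 (0.138), Acmsd, an enzyme of tryptophan breakdown (0.142), Pde4b, a cAMP phosphodiesterase (0.163), and Cnmd (0.164). Hsbp1l1, Acmsd and Pde4b passed, with changes of -0.99, -1.22 and -1.10 (adjusted p = 0.0331, 0.0328 and 0.0438). For the brightest Nrg4 probe they were Lpin1, a phosphatidate phosphatase (0.294), Adgrf1, an adhesion receptor (0.414), Ppp1r3g, a glycogen-targeting subunit of protein phosphatase 1 (0.486), Pfkfb3, a regulator of glycolysis (0.497), and Got1, an aspartate aminotransferase (0.600). Lpin1, Adgrf1, Pfkfb3 and Got1 passed, with changes of -3.02, -2.62, -2.83 and -2.21 (adjusted p = 0.0172, 0.00992, 0.00301 and 0.0310). Cela2a, Cnmd and Ppp1r3g did not pass, with changes of -1.21, -1.23 and -2.63 (limma, adjusted p = 0.0727, 0.084 and 0.1). All these genes share the 6 arrays and the diet groups with their match, so the likeness is a description. They were picked for likeness to a probe that passed, so their lower signal and small adjusted p are partly built into the choice.

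Markers of liver cell types are given beside these results. All 8 hepatocyte markers were well above background on every array. By the brightest probe 7 of the 8 were lower in soy, with a median change of -0.12, none passed, and 3 had a probe with an unadjusted p under 0.05. Cps1, an enzyme of the urea cycle, was lower in every soy liver (-0.47, SE 0.118, adjusted p = 0.176), Tat, a tyrosine aminotransferase, changed by -0.76 (SE 0.261, adjusted p = 0.323) with overlap, and Alb by -0.14 (adjusted p = 0.690). The markers of cholangiocytes, Kupffer cells, endothelial cells and stellate cells (6 genes each) had median changes of -0.0124, 0.19, 0.0670 and -0.125, and none passed. Fat is a known source of Nrg4, and 6 adipocyte markers are given beside it. Lep, the brightest, and Cidec, which fatty liver also expresses, were well above background on all 6 arrays, with changes of -0.21 (adjusted p = 0.618) and 0.61 (adjusted p = 0.648). Cidea was so on 1 control array, and Adipoq, Plin1 and Ucp1 on no array. Cidec measured 11.23 in soy 1 and 9.54 and 9.72 in the other soy livers. Its change lay between 0.07 and 0.92 when 1 array was left out. The summed linear signal of all 6 adipocyte markers was 2640, 2592 and 3069 in control and 4096, 2658 and 2483 in soy livers, with overlap. In soy 1, where the sum was highest, Cidec held 2403 of it. The part of fat in the change of Nrg4 was not tested.

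The summed linear signals of the markers were apart between the groups for endothelial cells, for pancreas and for nerve and Schwann cells, and overlapped for the other lists of markers. The endothelial sum was 41922, 42224 and 41648 in control and 43333, 49356 and 45350 in soy livers. Its brightest gene was Clec4g (0.20, adjusted p = 0.545), and 3 of its 6 genes were higher and 3 lower in soy, the lower ones being Pecam1 (-0.14), Stab2 (-0.0615) and Lyve1 (-0.66, adjusted p = 0.655). Lyve1 measured 11.15 in control 1 and 9.23 and 9.31 in the other controls. Its change lay between -1.0 and -0.04 when 1 array was left out. No gene of these 3 lists passed. All 5 pancreas markers had a lower mean signal in soy. The 2 that were well above background on all 6 arrays, Cela1 and Ctrb1, had a median change of -0.497. The summed linear signal of all 5 was 30191, 46429 and 38746 in control and 22200, 27822 and 20363 in soy livers. The groups did not overlap in this sum. Cela1, the brightest, which liver also expresses, changed by -0.73 (adjusted p = 0.192). Most of the sum was Cela1, with 28157, 43998 and 36346 in control and 20348, 25936 and 18540 in soy livers. Cpa1, Prss2 and Pnlip were well above background on 2 control arrays and, with the rarer mark there, on no soy array, so no fold is given for them. The 5 nerve and Schwann cell markers summed to 3650, 5406 and 6803 in control and 7531, 10151 and 6866 in soy livers. The soy sums were all higher, mostly through Snap25 (0.83, adjusted p = 0.363), while Sox10 changed by -0.35 (adjusted p = 0.227). The part of these cells and tissues in the changes of Egfr and Nrg4 was not tested.

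**Figure D5:**
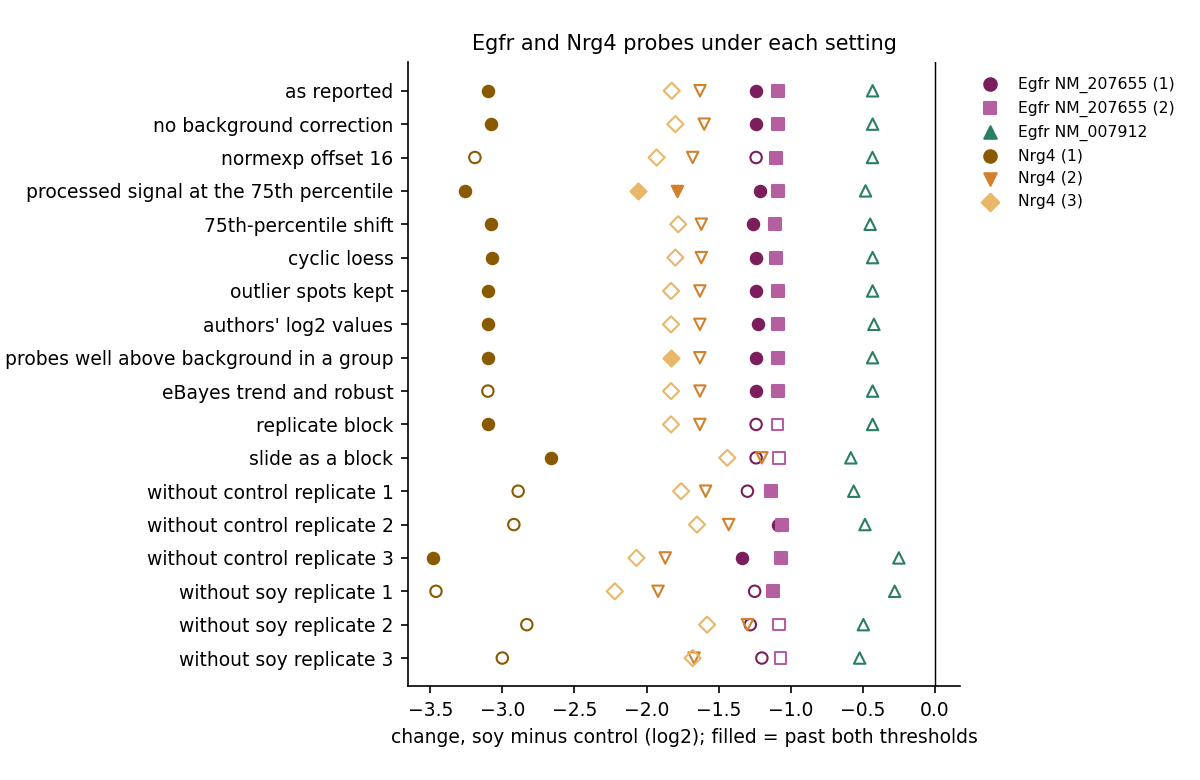
Change of the Egfr and Nrg4 probes (soy minus control, log2) under each processing setting and with each array left out, with filled symbols for probes past both thresholds and open symbols for the others. All values are below 0, the NM_207655 probes lie between -1.34 and -1.06, and the brightest Nrg4 probe lies between -3.48 and -2.66.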

How the data were processed

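Liver RNA of 3 control and 3 soy mice was hybridized to Agilent G3 Mouse arrays (Cy3). The authors deposited, per the file headers, Feature Extraction 11.5.1.1 output, whose median spot and local background intensity carry no correction or scaling. They also deposited log2 values of the same arrays, made by a method not given in the sources used here and within 0.0561 of the values below.

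For background correction normexp (offset 50) was applied to these intensities, after which control spots were removed, arrays quantile normalized and log2 transformed, outlier spots left out and spots of a probe averaged. All 56605 probes were tested with limma 3.58.1 in R 4.3.3 (lmFit, eBayes), without covariates, with Benjamini-Hochberg adjustment over all probes, and the fit was tested on simulated data. Probes were named through RefSeq accessions (GRCm38.p6), which gave 32994 probes a symbol. Array annotation was on mm9, so no probe positions are given. Tables and plots were made with Python 3.11.15, pandas 2.3.3, scipy 1.17.1 and matplotlib 3.10.9.

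Members, lists and tests were chosen with earlier results of these data known. Named are all members, the 3 largest changes of each pathway list and its genes that passed, and the 5 genes most like Egfr and Nrg4. Results of 2 genes that this rule selects are left out, and the other ErbB ligands, near background, are given no fold. Other genes named in the text (Met and the markers) were chosen after their values were seen. Alternatives were other background corrections, signals and normalizations, a filter on dim probes, no removal of outlier spots, trended and robust eBayes, replicate number or slide as a block, the log2 values as deposited, no fold threshold, and omission of single arrays.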

Additional observations from a re-analysis of the deposited data

How the results depend on the processing

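The 3 passing probes of the family became 1 with an offset of 16, 7 with the processed signal, 1 with slide as a block and 0 to 3 with 1 array left out (0 on omission of soy 2 or soy 3, 1 on omission of control 1 or soy 1). With the processed signal 5 were lower and 2 higher in soy. The higher ones were Erbb4 (limma, adjusted p = 0.00177) and the dimmest Nrg1 probe, each well above background on no array. Over all probes the count moved from 198 to 77 with an offset of 16, 13138 with the processed signal, 299 with a 75th-percentile shift, 493 when only probes well above background in a group were tested, 24 with slide as a block, and 23 to 199 with 1 array left out (102 and 71 on omission of control 1 and control 2, and 50, 25 and 23 on omission of soy 1, soy 2 and soy 3). The 75th-percentile shift and the processed signal moved the median change of all probes from -0.0102 to 0.134 and 0.125. The fits with fewer arrays or with slide as a block hold fewer residual degrees of freedom. The cause of these moves, in those fits or in the others, was not tested. Replicate numbers do not pair the samples: same-numbered control and soy arrays deviated with correlations of 0.116, -0.0574 and 0.106, and not every sample correlated best with its own number. With the replicate block 77 probes passed, 1 of them in the family, the brightest Nrg4 probe.

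Every Egfr, Nrg4 and Lrig1 probe kept its sign in the alternatives fitted to single probes, as did Tgfa and Hbegf. The sign turned for members near 0. With the 75th-percentile shift it did for the dimmer Erbb2 probe (0.0330) and the 3 Nrg1 probes (0.0799, 0.118 and 0.151), with slide as a block for the same Nrg1 probes (0.0847, 0.0116 and 0.0139), and with the processed signal for the dimmest Nrg1 probe (1.17, adjusted p = 0.00177), which was well above background on no array. With 1 array left out, changes ran from -0.00966 to 0.0853 for the brighter Erbb2 probe, -0.00564 to 0.246 for Erbb3, -0.336 to 0.0648 and -0.0786 to 0.0302 for the brightest and dimmest Nrg1 probe, and -0.0978 to 0.155 for Egf, where values of Nrg1 and Egf are differences of signals near background and not measured folds. The difference between Egfr accessions was recomputed under the other background corrections, signals and normalizations, with outlier spots kept, with the deposited log2 values, with the brightest probes, within slides and with 1 array left out, and there it lay between -0.95 and -0.53. The dimmer Nrg4 probes passed with the processed signal (adjusted p = 0.0355 and 0.0171), and the dimmest one also when only probes well above background in a group were tested (0.0495). Of the 10 members, Erbb4 was below the reach of these arrays, and Nrg1 and Egf were near it.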
